A study of Mus musculus with 12 samples.

Results

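The thick ascending limb of the loop of Henle is the kidney tubule segment that takes up salt without water. The data described here are the RNA levels of 7 genes of this segment, Slc12a1, Bsnd, Casr, Ptger3, Ppp1r1a, Umod and Sostdc1, in whole kidneys of mice at postnatal day 15. The genes were chosen by name for their known place in this segment, with earlier results of these data known. Each matched 1 gene of the 55487 in the gene table, and all 7 passed the filter on low counts that left 19890 genes to test. The study sequenced 12 libraries in 4 groups of 3. The libraries labelled Cep120 KO and Pkd1 KO have titles with homo, and each line has its own control group, whose titles say het while the genotype label says WT. Line names join Hoxb7 to Cep120, a centriole protein gene, or to Pkd1, the polycystin-1 gene mutated in most human dominant polycystic kidney disease. As background, a Hoxb7-driven Cre acts in the ureteric bud and the collecting ducts that grow from it, not in the thick ascending limb. The question the design poses is how kidneys of each line differ from their controls at this age.

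The segment works as a salt pump with a receptor panel. Slc12a1 carries sodium, potassium and chloride from the urine into the cell, potassium leaks back through Kcnj1, and chloride leaves on the blood side through channels that need the Bsnd subunit. Calcium (through Casr) and prostaglandin E2 (through Ptger3, the EP3 receptor) slow this transport, hormones acting through cyclic AMP speed it up, and the cells shed uromodulin, the product of Umod, into the urine.

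Libraries held 23070736 to 31837973 counts. The targeted genes did not follow the labels: Cep120 was 16.6 to 20.4 CPM (counts scaled to a common library sum, with TMM factors) in the libraries labelled Cep120 KO and 13.7 to 18.7 in the Cep120 controls (log2 fold change 0.14). Pkd1 was higher, not lower, in the libraries labelled Pkd1 KO, at 23.9 to 36.4 CPM against 13.9 to 21.6, a log2 fold change of 0.74 past the threshold (edgeR adjusted p = 0.00952). The sources used here do not say where the deleted exons lie, and a count over the whole gene need not show a deletion. The libraries fell into 2 classes by the number of genes with a count, 6 at 23532 to 25652 and 6 at 30289 to 32705, and Pkd1 control 3 was the 1 Pkd1 library in the high class. Pkd1 control 3 also held RNA of Xist (49.97 CPM) together with Y-linked RNA (96.9 CPM), while the other Pkd1 controls held Xist with almost no Y-linked RNA and Pkd1 KO libraries held Y-linked RNA with almost no Xist. The calls on the 7 genes are given with and without Pkd1 control 3. The counts of each gene list below and of the 12 transcripts called were the same without Pkd1 control 3 except where stated. Nothing in the labels states that the 3 libraries of a group are 3 animals, and the p-values measure only the spread between libraries.

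All 7 genes were lower in the libraries labelled Pkd1 KO than in their controls, by 2.23-fold for Casr to 5.90-fold for Ppp1r1a, and for each gene every Pkd1 KO library was below every control library. edgeR's quasi-likelihood test across all genes called all 7 lower (Benjamini-Hochberg adjusted p under the threshold of 0.05, from 1.11e-05 to 0.000719). Of all genes tested, 25.5% were likewise lower in every Pkd1 KO library, 22.4% were called lower in this comparison, and the median log2 fold change was -1.89 over the 7 genes and -0.04 over all genes. The 7 genes were chosen with earlier results of these data known, so these shares are no test of the set. Without Pkd1 control 3, which leaves libraries of 1 detection class, all 7 stayed called, with log2 fold changes from -2.79 (Ppp1r1a) to -1.23 (Casr). In whole kidney, fewer cells of a segment and less RNA per cell cannot be told apart.

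**Figure D1:**
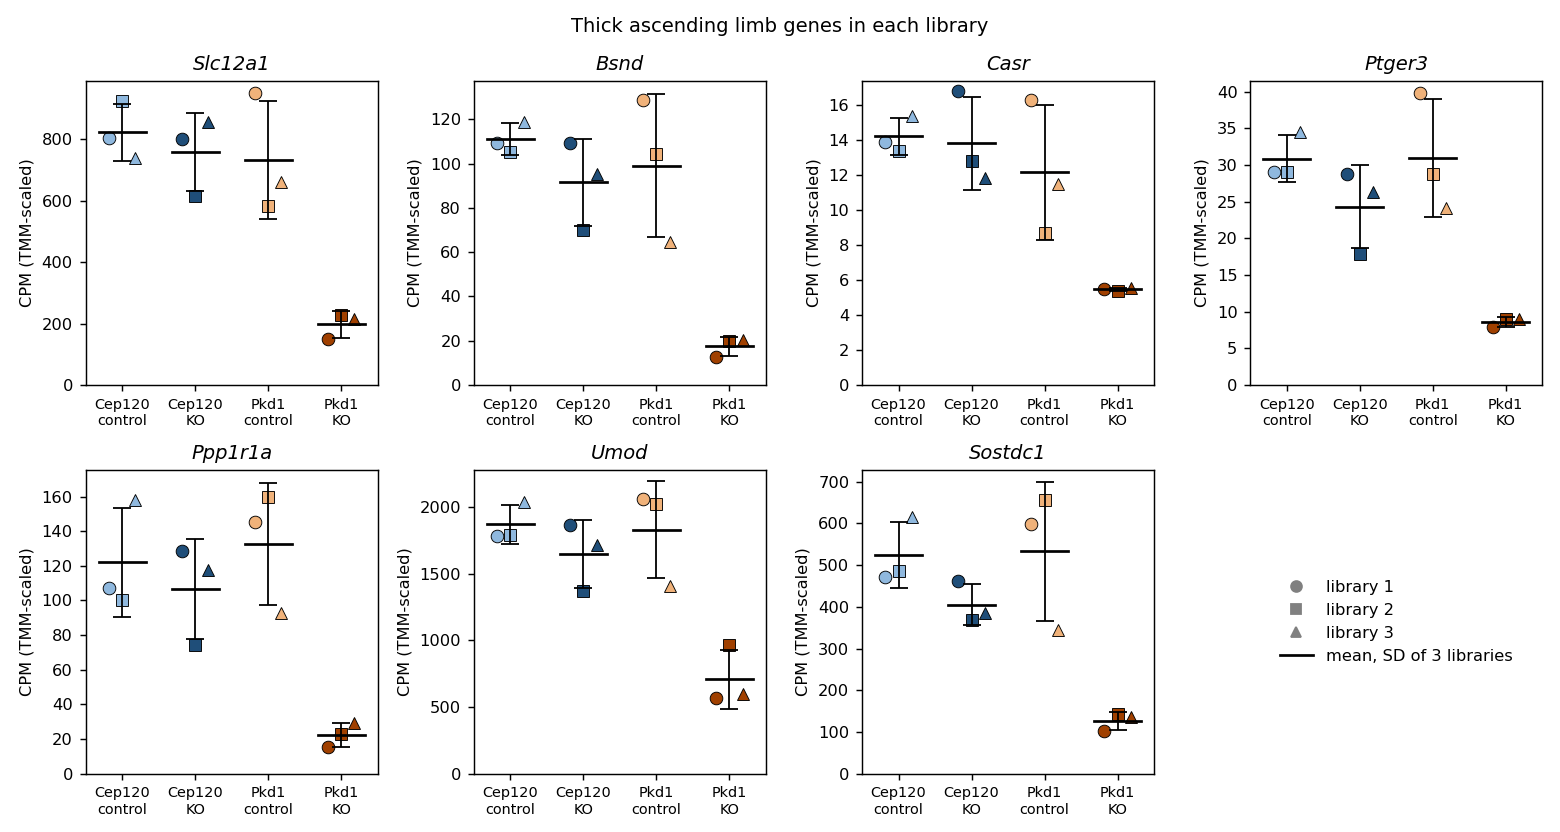
CPM (TMM-scaled, vertical axis, starting at 0) of each of the 7 genes in the 12 libraries, grouped by line and genotype label. Points are libraries, the horizontal line is the mean and the bar the SD of 3 libraries. In every panel the 3 Pkd1 KO libraries lie below the other 9.

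Slc12a1, the sodium-potassium-chloride cotransporter NKCC2 and the target of loop diuretics, stood at 148, 228 and 216 CPM in Pkd1 KO libraries 1 to 3. Its level was 950, 585 and 662 CPM in the 3 Pkd1 controls. All Pkd1 KO values were below the lowest control, and the means were 197 ± 43.0 and 732 ± 192 CPM (SD, n = 3 each). The log2 fold change was -1.89 (SE 0.217, edgeR adjusted p = 2.43e-05), a 3.71-fold difference.

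The Slc12a1 gene carries a cassette of 3 alternative versions of exon 5, of which a transcript uses 1. These exons code for part of the transporter known to set its affinity for ions, and they are shown because they are what separates the 3 main transcripts measured below. Matched by transcript ID to the GENCODE M21 annotation of GRCm38, each is exon 5 of 27, is 96 bases long and lies on the forward strand of chromosome 2, in an order known as B, A and F. Slc12a1-202 uses chr2:125165495-125165590, Slc12a1-201 uses chr2:125166123-125166218, and Slc12a1-203 uses chr2:125166673-125166768. Capitals mark the 45 positions at which the 3 exons are not all identical.
Slc12a1-202 exon 5: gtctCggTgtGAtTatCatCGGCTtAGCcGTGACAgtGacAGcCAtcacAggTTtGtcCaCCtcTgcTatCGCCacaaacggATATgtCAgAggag
Slc12a1-201 exon 5: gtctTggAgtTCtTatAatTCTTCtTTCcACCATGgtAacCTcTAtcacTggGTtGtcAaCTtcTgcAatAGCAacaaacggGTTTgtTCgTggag
Slc12a1-203 exon 5: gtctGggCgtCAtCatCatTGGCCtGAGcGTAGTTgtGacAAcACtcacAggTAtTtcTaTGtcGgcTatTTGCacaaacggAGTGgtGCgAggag
Pairs of these exons were identical at 65.6% (202 and 201), 68.8% (202 and 203) and 58.3% (201 and 203) of positions. The 3 transcripts have the same coding length of 3270 bases.

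The 3 Slc12a1 transcripts were all lower in the libraries labelled Pkd1 KO. Slc12a1-203 was at 16.5, 30.1 and 33.7 TPM (a level corrected for transcript length and library sum) in Pkd1 KO libraries and at 138, 57.9 and 84.7 TPM in controls. The change on the log2 scale was -1.98 (SE 0.326, edgeR adjusted p = 0.00221 over 40007 transcripts). Slc12a1-201 was at 17.7, 20.5 and 20.7 TPM against 77.3, 42.7 and 70.6 TPM, with the log2 value changed by -1.86 (SE 0.170, adjusted p = 9.32e-05). Slc12a1-202, the scarcest, was at 7.20, 10.1 and 7.28 TPM against 19.98, 14.98 and 22.4 TPM, changed by -1.39 on that scale (SE 0.189, adjusted p = 0.000728). No library of either group overlapped for any of these transcripts. Of their sum, Slc12a1-202 made up 11.8% to 17.4% in Pkd1 KO libraries and 8.498% to 12.97% in Pkd1 controls, ranges that overlap. The shares of Slc12a1-201 (33.6% to 42.8% against 32.9% to 39.7%) and Slc12a1-203 (39.8% to 54.6% against 47.6% to 58.6%) overlapped as well. These values are the authors' estimates, and reads that all 3 transcripts share are divided between them by a model.

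**Figure D2:**
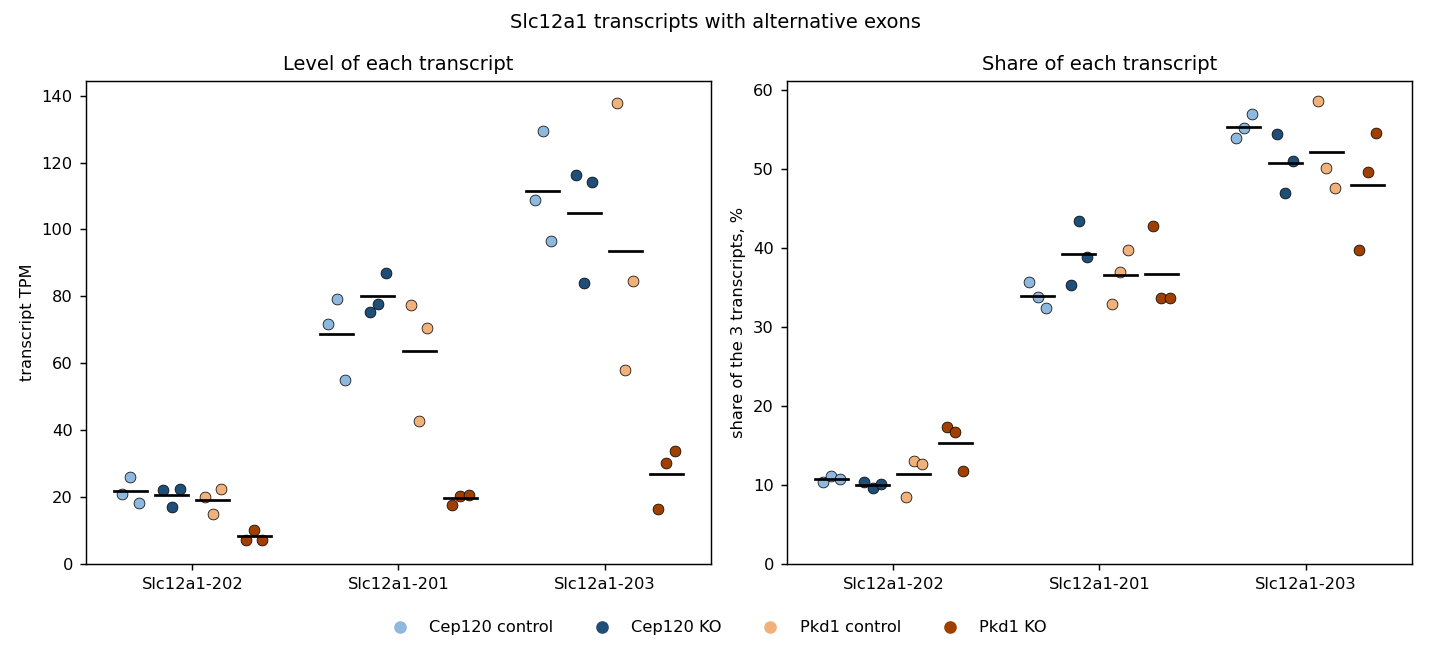
Level (left, transcript TPM) and share of the 3-transcript sum (right, %) of the Slc12a1 transcripts that carry the alternative exons, 1 point per library, with the group mean as a line. The levels of Pkd1 KO libraries lie below those of the other groups for each transcript, while the shares of the Pkd1 groups overlap.

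Bsnd encodes barttin, the subunit that brings chloride channels to the blood-side membrane and without which human kidneys waste salt. It was at 12.5, 19.9 and 20.2 CPM in Pkd1 KO libraries and at 128, 104 and 64.6 CPM in Pkd1 controls, with no overlap. The log2 fold change was -2.50 (SE 0.258, edgeR adjusted p = 1.11e-05), a 5.65-fold difference. With the share of Y-linked RNA as a term it was -1.88, still called.

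Casr, the calcium-sensing receptor that lowers salt and calcium uptake when blood calcium rises, was the least changed of the 7. Its Pkd1 KO libraries were nearly equal at 5.45, 5.35 and 5.56 CPM, and its Pkd1 controls were at 16.3, 8.69 and 11.5 CPM. The log2 fold change was -1.16 (SE 0.209, edgeR adjusted p = 0.000719), or 2.23-fold. Ptger3, the EP3 receptor for prostaglandin E2, was at 7.85, 8.96 and 8.94 CPM against 39.8, 28.8 and 24.2 CPM, again without overlap. Its log2 fold change was -1.85 (SE 0.204, adjusted p = 1.84e-05), or 3.61-fold.

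Ppp1r1a encodes inhibitor-1, which blocks protein phosphatase 1 once protein kinase A has phosphorylated it and so prolongs cyclic AMP signals. It had the largest fold change of the 7. Its level was 15.5, 22.6 and 29.3 CPM in Pkd1 KO libraries and 146, 159.6 and 92.8 CPM in Pkd1 controls. The log2 fold change was -2.56 (SE 0.295, edgeR adjusted p = 2.52e-05), or 5.90-fold, with no overlap between groups. With the share of Y-linked RNA as a term it was -1.92, still called.

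Umod encodes uromodulin, the most abundant protein of normal urine. It was at 566, 964 and 597 CPM in Pkd1 KO libraries and at 2058, 2020 and 1408 CPM in Pkd1 controls. The groups did not overlap, and Pkd1 KO library 2 stood closest to the controls. The log2 fold change was -1.37 (SE 0.219, edgeR adjusted p = 0.000305), or 2.58-fold. Umod was the 1 member that lost its call under an alternative setting: with the presence of Xist RNA as a term in the fit its log2 fold change was -1.28 and its adjusted p was 0.0782. Xist RNA was present in all Pkd1 controls and at most 0.169 CPM in the Pkd1 KO libraries, so within this line the 2 cannot be told apart. The other 6 genes kept their call with that term, with adjusted p from 0.0103 to 0.0309. Presence of Xist did not vary within the Pkd1 KO libraries, the Pkd1 controls or the Cep120 controls. The term was therefore fitted only from Cep120 KO 3 against Cep120 KO 1 and 2. A call kept or lost with it is no test of Xist in the Pkd1 line, here and below.

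Sostdc1 encodes a secreted antagonist of BMP and Wnt ligands. It was at 103, 143 and 135 CPM in Pkd1 KO libraries and at 599.7, 655 and 344 CPM in Pkd1 controls, without overlap. The log2 fold change was -2.07 (SE 0.227, edgeR adjusted p = 1.69e-05), or 4.20-fold. Pkd1 control 3 was the lowest control library for Bsnd, Ptger3, Ppp1r1a, Umod and Sostdc1, and without it the log2 fold change of Sostdc1 was -2.33.

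In the libraries labelled Cep120 KO none of the 7 genes was called against the Cep120 controls. Without both replicate 3 controls 0 of the 7 were called as well. Slc12a1 was at 801, 616 and 858 CPM against 805, 924 and 738 CPM. Umod was at 1865, 1366 and 1715 CPM against 1781, 1788 and 2038 CPM. Both pairs of groups overlapped, as did those of Bsnd, Casr and Ppp1r1a. Ptger3 (28.8, 17.9 and 26.3 against 29.1, 29.0 and 34.5 CPM) and Sostdc1 (462, 368 and 386 against 472, 485 and 615 CPM) were lower in every Cep120 KO library than in any Cep120 control, as were 7.88% of all genes tested. edgeR called 0 of 19890 genes (0%) in this comparison, 1201 had an unadjusted p under 0.05, DESeq2 called 21 and limma-voom 0. The log2 fold changes of the 7 genes ran from -0.37 (Sostdc1) to -0.04 (Casr), with a median of -0.19 and edgeR adjusted p from 0.757 to 0.966. The 95% confidence interval of the log2 fold change was -0.57 to 0.34 for Slc12a1, -0.65 to 0.29 for Umod and -0.79 to 0.41 for Ppp1r1a. It was -0.84 to 0.10 for Sostdc1, -0.80 to 0.24 for Bsnd, -0.77 to 0.08 for Ptger3 and -0.48 to 0.40 for Casr. These intervals bound the falls these libraries leave room for. The signs of Slc12a1, Casr, Ppp1r1a, Bsnd and Umod turned under some settings, always without a call.

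The difference between the lines was itself tested, as the Pkd1 log2 fold change minus the Cep120 one. All 7 genes passed, all lower, where 14.2% of all genes tested were called lower and 13.9% higher. The difference was -2.37 for Ppp1r1a (SE 0.399, edgeR adjusted p = 0.0011) and -2.22 for Bsnd (SE 0.348, adjusted p = 0.000697). It was -1.77 for Slc12a1 (SE 0.299, adjusted p = 0.0011). The smallest differences were those of Umod, -1.19 (SE 0.306, adjusted p = 0.0128), and Casr, -1.12 (SE 0.291, adjusted p = 0.0136). All 7 stayed called without Pkd1 control 3, with differences from -2.60 to -1.18, and also without both replicate 3 controls. With upper-quartile scaling the calls over all genes split into 3427 lower and 2221 higher, against 2834 and 2764 here. Set directly against the Cep120 KO libraries, the Pkd1 KO libraries were lower for all 7 genes (log2 fold changes from -2.38 to -1.22, where 26.4% of all genes were called lower), a comparison that also carries any difference between the lines. Between the 2 control groups 0 of the 7 and 0 of 19890 genes (0%) were called by edgeR, 834 genes had an unadjusted p under 0.05, and DESeq2 and limma-voom called 0. Without both replicate 3 controls edgeR called 371 genes between the control groups, and 0 of the 7.

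**Figure D3:**
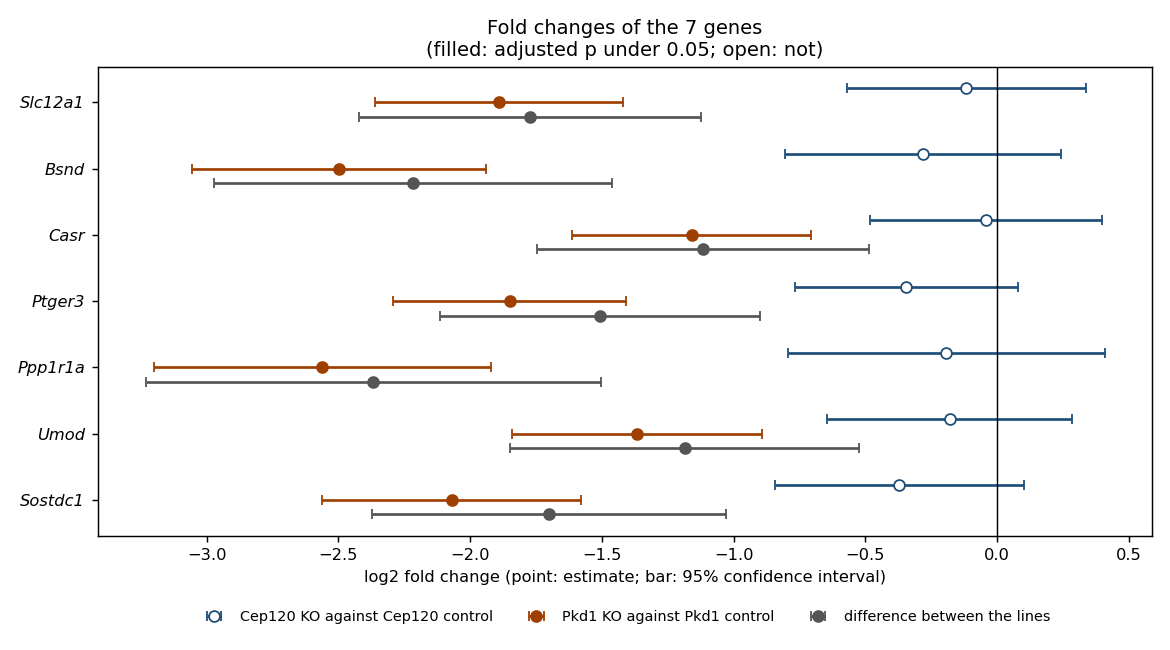
log2 fold change of each gene with its 95% confidence interval, for Cep120 KO against Cep120 control, Pkd1 KO against Pkd1 control, and the difference between the lines. Filled points passed the adjusted p threshold: all Pkd1 and difference points lie between -2.56 and -1.12, and all Cep120 intervals include 0.

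On the length-corrected TPM scale, where genes can be compared with each other, the order in the Cep120 controls was Umod (783 ± 10.5), Sostdc1 (368 ± 33.0), Slc12a1 (209.7 ± 35.8), Ppp1r1a (120.4 ± 22.6), Bsnd (43.2 ± 0.719), Ptger3 (16.3 ± 0.769) and Casr (3.31 ± 0.0681), each SD over 3 libraries. The same order held in the Pkd1 KO libraries, from Umod at 339.5 ± 93.7 and Sostdc1 at 102 ± 15.3 through Slc12a1 at 56.8 ± 11.1 to Casr at 1.48 ± 0.0926 TPM. For every gene the Pkd1 KO group had the lowest mean CPM of the 4 groups and did not overlap the next group up. Among the 3 other groups, neighbours in the order overlapped, except that Cep120 controls lay above Cep120 KO libraries for Ptger3 and Sostdc1. Together the 7 genes took 0.0896% to 0.138% of all counts in the Pkd1 KO libraries and 0.276% to 0.380% in the other 9.

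The TPM of each of the other 6 genes was also divided by that of Slc12a1. The ratio of Casr to Slc12a1 TPM was 0.0219 to 0.0357 in Pkd1 KO libraries and 0.0141 to 0.0166 in Pkd1 controls, higher in every Pkd1 KO library. Bsnd went the other way, with ratios of 0.132 to 0.146 against 0.155 to 0.287. So did Ppp1r1a, with ratios of 0.409 to 0.537 against 0.581 to 1.13. The Pkd1 groups did not overlap in these ratios of Casr, Bsnd and Ppp1r1a. The ratios of Umod (4.61 to 7.09 against 3.60 to 5.91), Ptger3 and Sostdc1 to Slc12a1 overlapped. No test was run on these ratios, and with 3 libraries against 3 an exact permutation test cannot give a p below 0.1. The share of all genes with such a ratio was not computed. All 6 ratios share the level of Slc12a1, which itself ran from 119.8 to 239.5 TPM in the Pkd1 controls.

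Umod also has 2 main transcripts, Umod-201 and Umod-206, which the annotation gives the same coding length of 1926 bases in 11 exons and a second exon that is 56 bases longer in Umod-201. Umod-206 was at 75.1, 113 and 60.8 TPM in Pkd1 KO libraries against 282, 247 and 243 TPM in controls, a log2 change of -1.80 with an SE of 0.234 (edgeR adjusted p = 0.000568). Umod-201 was at 203, 332 and 231 TPM against 611, 461 and 434 TPM, changed by -1.15 (SE 0.233, adjusted p = 0.00672). Umod-201 thus made up 73.0% to 79.1% of their sum in Pkd1 KO libraries and 64.1% to 68.4% in Pkd1 controls, without overlap. In the Cep120 line its share was 66.3% to 69.1% in KO libraries and 68.0% to 69.3% in controls. These shares were not tested, and reads that both transcripts share are divided between them by a model. In the difference between the lines Umod-206 was called (-1.65, SE 0.323, edgeR adjusted p = 0.0119) and Umod-201 was not (-0.92, SE 0.326, adjusted p = 0.114). Of the 19 transcripts of the 7 genes in the deposited transcripts, 14 passed the filter and 12 were called lower in the Pkd1 comparison, where 9.14% of all transcripts were. The uncalled ones were Casr-203 (log2 fold change -1.31, SE 1.29) and Umod-202 (-0.53, SE 0.918), both scarce. The Casr transcripts analysed here hold little of that gene's level: in Cep120 controls Casr-203 had a mean of 0.226 TPM and the other Casr transcripts 0, against 3.31 TPM for the gene. In the Cep120 comparison 0 of the 14 passed and 5 of 40007 transcripts did (0.0125%).

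Across the 12 libraries the 7 genes moved together: Pearson's r of log2 CPM over their 21 pairs ran from 0.864 to 0.983, with a median of 0.958. These values are a description, and all 21 share the gap between the Pkd1 KO libraries and the rest. Without the Pkd1 KO libraries the 21 values ran from 0.0605 to 0.949 with a median of 0.640, and within groups from 0.145 to 0.872 with a median of 0.670. Against the mean of the 6 control libraries, the mean log2 CPM of the 7 genes was lower by 2.23, 1.77 and 1.82 in the Pkd1 KO libraries (differences of -2.23, -1.77 and -1.82). The Cep120 KO libraries differed from it by 0.05, -0.47 and -0.13, and Cep120 KO 2 was the lowest of the other 9, below Pkd1 control 3 at -0.40.

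The genes whose levels over the 12 libraries were most like the mean of the 7 included 1 other gene of the same segment. By Pearson's r they were Aco1 (cytosolic aconitase, an iron regulatory protein), Tmem72, Slc26a4 (pendrin, the chloride-bicarbonate exchanger of collecting duct intercalated cells), Mep1a (a brush border protease of the proximal tubule), Hmgcs1 (an enzyme of cholesterol synthesis) and Prkcq (a protein kinase C). Their r ran from 0.993 to 0.994, and Tmem72 is on the list of thick ascending limb markers used below. In the Pkd1 comparison Slc26a4 fell from 15.4 to 35.7 CPM in controls to 1.05 to 2.03 CPM (log2 fold change -4.23), Aco1 had a log2 fold change of -1.38 and Prkcq of -2.67. These falls come with the selection, since the pattern used to pick the genes holds the gap between the Pkd1 KO libraries and the rest. Of 19883 other genes, 1545 (7.77%) had an r above 0.9.

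Promoters are shown for Slc12a1 and Umod, chosen after the search because CCAAT was found in them. Casr and Ptger3 were searched as well, were also lower in the Pkd1 comparison, and held no CCAAT. RefSeq's table for GRCm38.p6 held 4 of the 7 genes (Slc12a1, Casr, Ptger3 and Umod). Each run is the 250 bases before the start of the gene, 5′ to 3′ on the gene's strand, at chr2:125152350-125152599 on the forward strand for Slc12a1 and chr7:119479263-119479512 on the reverse strand for Umod. Capitals mark CCAAT.
Slc12a1 promoter: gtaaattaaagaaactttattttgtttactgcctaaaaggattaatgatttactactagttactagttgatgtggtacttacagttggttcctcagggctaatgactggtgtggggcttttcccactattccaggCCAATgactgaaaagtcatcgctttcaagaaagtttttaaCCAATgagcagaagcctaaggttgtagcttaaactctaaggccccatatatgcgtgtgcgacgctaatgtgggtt
Umod promoter: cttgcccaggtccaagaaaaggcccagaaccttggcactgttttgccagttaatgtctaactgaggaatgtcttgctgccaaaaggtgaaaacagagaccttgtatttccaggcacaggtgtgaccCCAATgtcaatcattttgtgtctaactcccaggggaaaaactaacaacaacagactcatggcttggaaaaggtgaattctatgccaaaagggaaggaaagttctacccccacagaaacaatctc
CCAAT starts 115 and 75 bases before the start of Slc12a1 (positions -115 and -75) and at position -124 in Umod. It was present on either strand in 37.4% of the 32851 promoters of the table, searched from 250 bases before to 50 after the start. The TATA box searched as TATAAA was in none of the 4 members and in 13.6% of all promoters. Also in none of the 4 were the nuclear receptor part site searched as AAGGTCA (4.72% of all), TGACG, from the cyclic AMP response element (20.8% of all), and the first letters of the octamer, ATGCAAA (4.63% of all). These matches describe letters, and no binding was measured.

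Partner genes of the segment were counted in 12 lists of 88 genes, of which 86 were tested. In the Pkd1 comparison 37 were lower, 16 were higher and 33 were not called, and their median log2 fold change was -0.29. Over all genes 22.4% were called lower and 22.1% higher, shares that also apply to the count of each list and marker list below. In the Cep120 comparison 0 of the 86 were called. With the presence of Xist RNA or the share of Y-linked RNA as a term, several of these lists lost calls. Both terms separate Pkd1 KO libraries from Pkd1 controls, and the Xist term has the limit given with Umod. Most of the changed counts are given beside the lists.

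**Figure D4:**
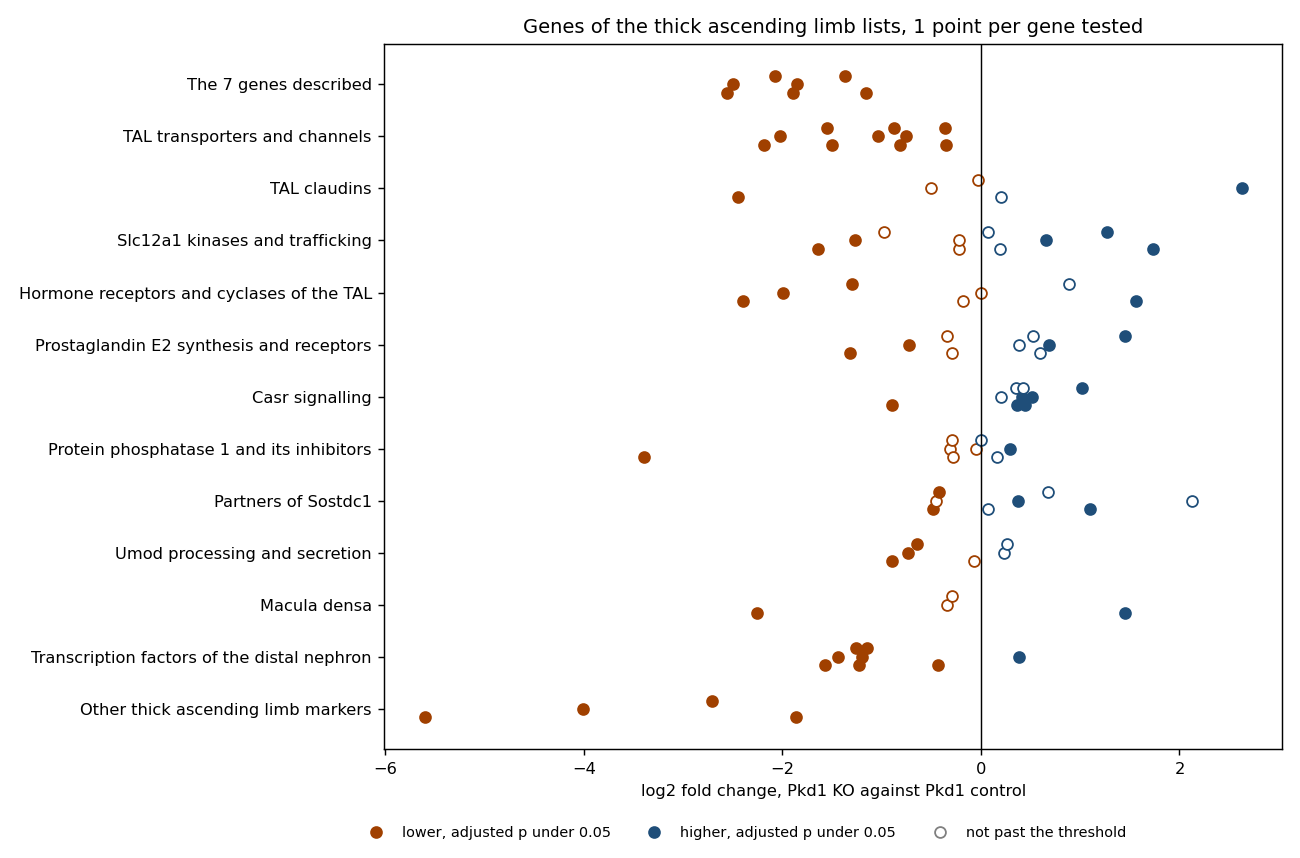
log2 fold change in Pkd1 KO against Pkd1 control for every tested gene of the 12 lists and for the 7 genes, 1 point per gene, filled where the adjusted p passed the threshold. All points of the transporter list and of the other thick ascending limb markers lie below 0, and the claudins lie on both sides.

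Other transporters and channels of the segment followed the 7 genes. All 10 on the list were lower in the Pkd1 comparison, with a median of -0.96, and 5 were lower in the difference between the lines. With Xist or Y-linked RNA as a term 4 and 5 of them stayed called. Kcnj1, the ROMK channel that returns potassium to the urine for Slc12a1 to use, was at 80.5 to 111 CPM in Pkd1 KO libraries against 224 to 342 CPM (log2 fold change -1.50, SE 0.165, edgeR adjusted p = 1.73e-05). Slc9a3, the sodium-hydrogen exchanger NHE3 that the proximal tubule also makes, was at 4.604 to 10.1 against 27.1 to 41.6 CPM (-2.18, SE 0.243, adjusted p = 1.94e-05).

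Claudins, which make the paracellular path for sodium, calcium and magnesium between the cells, split. Cldn10, counted over the whole gene without telling its transcripts apart, was at 32.5 to 49.2 CPM in Pkd1 KO libraries against 174 to 288 CPM in controls (log2 fold change -2.45, SE 0.229, edgeR adjusted p = 5.57e-06). Cldn3 was at 86.8 to 119 against 13.2 to 19.2 CPM (2.63, SE 0.204, adjusted p = 1.78e-06). Both also passed in the difference between the lines, at -2.19 and 2.51. The other 3 of the 5 claudins were not called, and 2 of them, named after their values were seen, form the path for calcium and magnesium: Cldn16 stood at 30.9 to 33.9 against 29.8 to 37.0 CPM (-0.03, SE 0.162) and Cldn19 at 0.20 (SE 0.195).

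Of the 10 kinases and trafficking proteins that act on Slc12a1, 3 were higher and 2 lower, where 22.1% and 22.4% of all genes were. With Xist as a term 2 higher and 2 lower calls stayed. Stk39, the SPAK kinase that phosphorylates and activates Slc12a1, was at 73.8 to 81.4 CPM in Pkd1 KO libraries against 22.4 to 25.1 CPM (log2 fold change 1.73, SE 0.111, edgeR adjusted p = 5.65e-07). Wnk1, a kinase upstream of it, was at 44.5 to 56.7 against 151 to 174 CPM (-1.64, SE 0.122, adjusted p = 1.41e-06). The difference between the lines was 1.78 for Stk39 and -1.81 for Wnk1, both past the threshold.

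Hormone receptors and cyclases of the segment had 1 higher and 3 lower of 7. Pth1r, the parathyroid hormone receptor, which the proximal tubule also makes, was at 31.96 to 39.4 against 167 to 207 CPM (log2 fold change -2.40, SE 0.158, edgeR adjusted p = 6.39e-07). Avpr2, the vasopressin V2 receptor, which the collecting duct also makes, was at 84.7 to 141 against 31.3 to 39.8 CPM (1.56, SE 0.191, adjusted p = 3.98e-05). With Xist as a term 1 of the 3 lower calls stayed, and with the Y-linked share 2.

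Around Ptger3, the list of prostaglandin E2 synthesis and receptors had 2 higher and 2 lower of 9, where 22.1% and 22.4% of all genes were. Hpgd, the enzyme that breaks the prostaglandin down, was at 20.9 to 22.3 against 41.7 to 61.9 CPM (log2 fold change -1.32, SE 0.168, edgeR adjusted p = 5.28e-05, and 0.0635 with Xist as a term). Ptgs1, cyclooxygenase-1, was at 80.3 to 88.3 against 50.8 to 56.0 CPM (0.68, SE 0.103, adjusted p = 0.000202). Without Pkd1 control 3 the list had 3 higher and 4 lower, with Xist as a term 1 higher and 0 lower, and with the Y-linked share 1 higher and 1 lower.

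Genes that carry the Casr signal had 5 higher and 1 lower of 9. Plcb1, a phospholipase C, was at 10.2 to 13.7 against 20.5 to 24.5 CPM (log2 fold change -0.90, SE 0.136, edgeR adjusted p = 0.000202). Gnaq, the Gq alpha subunit, was at 196 to 220.3 against 142 to 154 CPM (0.51, SE 0.118, adjusted p = 0.0036). With Xist as a term 0 of these 6 stayed called (Plcb1 adjusted p = 0.121, Gnaq 0.127). With the Y-linked share 1 lower call stayed.

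The list of protein phosphatase 1, the target of Ppp1r1a, and its inhibitors had 1 higher and 1 lower of 8. Ppp1r1b, the related inhibitor DARPP-32, was at 1.15 to 1.35 against 5.90 to 17.1 CPM (log2 fold change -3.39, SE 0.492, edgeR adjusted p = 0.000145, and -2.08 with the share of Y-linked RNA as a term). Ppp1r2, inhibitor-2, was at 62.5 to 77.2 against 53.7 to 60.8 CPM (0.29, SE 0.105, adjusted p = 0.0367), and lost that call in 19 of 25 alternatives, among them leaving out Pkd1 control 3 (0.26, adjusted p = 0.0954) or Pkd1 KO 3 (0.20, adjusted p = 0.181).

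Partners of Sostdc1 had 2 higher and 2 lower of the 8 tested, where 22.1% and 22.4% of all genes were. Sost and Nog were under the filter, and none of the 8 was called in the difference between the lines. Lrp6, a Wnt coreceptor, was at 45.9 to 59.9 against 69.0 to 82.5 CPM (log2 fold change -0.48, SE 0.128, edgeR adjusted p = 0.00826). Bmp2, a BMP ligand, was at 2.01 to 3.93 against 1.05 to 1.63 CPM (1.10, SE 0.346, adjusted p = 0.0208). The call of Bmp2 was lost without Pkd1 KO 1 (0.82, adjusted p = 0.106) or Pkd1 control 2 (0.96, adjusted p = 0.0732). With Xist or Y-linked RNA as a term 0 of the 4 stayed called.

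Genes of uromodulin processing had 3 lower of 6 and none higher. Hpn, hepsin, the protease that cuts uromodulin from the cell surface, was at 119.7 to 189 against 239 to 326 CPM (log2 fold change -0.90, SE 0.194, edgeR adjusted p = 0.00249). Hsp90b1, a chaperone of the endoplasmic reticulum, was at 319 to 374 against 454 to 651 CPM (-0.74, SE 0.156, adjusted p = 0.00208). With Xist as a term 1 of the 3 stayed called and with the Y-linked share 0 (Hpn adjusted p = 0.0733, Hsp90b1 0.272). None was called in the difference between the lines.

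The macula densa, the salt sensor at the end of the segment, was read through 4 genes, 1 higher and 1 lower. Nos1, its neuronal nitric oxide synthase, was at 0.305 to 0.515 against 1.51 to 2.16 CPM (log2 fold change -2.26, SE 0.338, edgeR adjusted p = 0.000181, and 0.0851 with Xist as a term). Ptgs2, cyclooxygenase-2, was at 1.58 to 4.63 against 0.754 to 1.13 CPM (1.45, SE 0.441, adjusted p = 0.0176). Its call was lost with Xist (adjusted p = 0.219) or Y-linked RNA (adjusted p = 0.163) as a term, and without Pkd1 KO 3 (0.84, adjusted p = 0.128) or Pkd1 control 2 (1.30, adjusted p = 0.0635). Without Pkd1 control 3 the list had 2 higher and 2 lower, with Xist as a term 0 and 0, and with the Y-linked share 0 higher and 1 lower.

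Of 8 transcription factors of the distal nephron 7 were lower and 1 was higher, with a median of -1.21. Without Pkd1 control 3 the list had 0 higher and 7 lower. Tfap2b was at 30.7 to 40.5 against 77.5 to 86.4 CPM (log2 fold change -1.20, SE 0.119, edgeR adjusted p = 8.36e-06). Esrrg was at 14.4 to 16.2 against 29.0 to 40.9 CPM (-1.15, SE 0.129, adjusted p = 2.08e-05). With Xist or Y-linked RNA as a term 2 of the 7 lower calls stayed in each case.

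The 4 other markers of the segment were all lower, with a median of -3.36, also with Xist or Y-linked RNA as a term. Egf, the epidermal growth factor precursor, which the distal convoluted tubule also makes, was at 5.74 to 9.99 CPM in Pkd1 KO libraries against 260.3 to 461 CPM (log2 fold change -5.60, SE 0.434, edgeR adjusted p = 1.78e-06). Tmem207 was at 0.838 to 1.36 against 14.1 to 20.1 CPM (-4.01, SE 0.327, adjusted p = 2.34e-06).

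Markers of other cell types moved in the same libraries. Proximal tubule markers were lower in 10 of 10, with a summed level of 599 to 966 CPM in Pkd1 KO libraries against 5982 to 10132 CPM in Pkd1 controls, where the 7 genes summed to 858 to 1391 against 2608 to 3938 CPM. Distal convoluted tubule markers were lower in 4 of 6 (249.2 to 382 against 881 to 1002 CPM), and Pvalb, the parvalbumin gene that marks that segment, was at 0 in at least 1 Pkd1 KO library. Principal cell markers of the collecting duct were higher in 5 of 6 and lower in 1 (1936 to 3423 against 581 to 821 CPM). Intercalated cell markers were higher in 1 and lower in 3 of 6 (169 to 206.4 against 168 to 338 CPM), and podocyte markers were lower in 2 of 5 (98.0 to 127 against 193 to 219 CPM). Macrophage markers were higher in 6 of 6 (626 to 903 against 93.3 to 240.2 CPM), fibroblast and myofibroblast markers in 6 of 6 (5070 to 8216 against 1421 to 2545 CPM) and injury markers in 4 of 6 (2044 to 2267 against 203 to 409 CPM). Without Pkd1 control 3 injury markers were higher in 5 of 6 and podocyte markers higher in 1 of 5. With Xist as a term 0 of 6 macrophage and 1 of 6 fibroblast markers stayed called higher, with the Y-linked share 4 and 1, and 9 of 10 proximal tubule markers stayed lower with either. Principal cell markers called higher were 3 with Xist and 4 with the Y-linked share, and injury markers 2 and 3. Distal convoluted tubule markers called lower were 3 and 4. Besides Pvalb no marker was at 0 in any library of these groups. In the Cep120 comparison 0 of these markers were called. The part of these changes in the levels of the 7 genes was not tested.

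**Figure D5:**
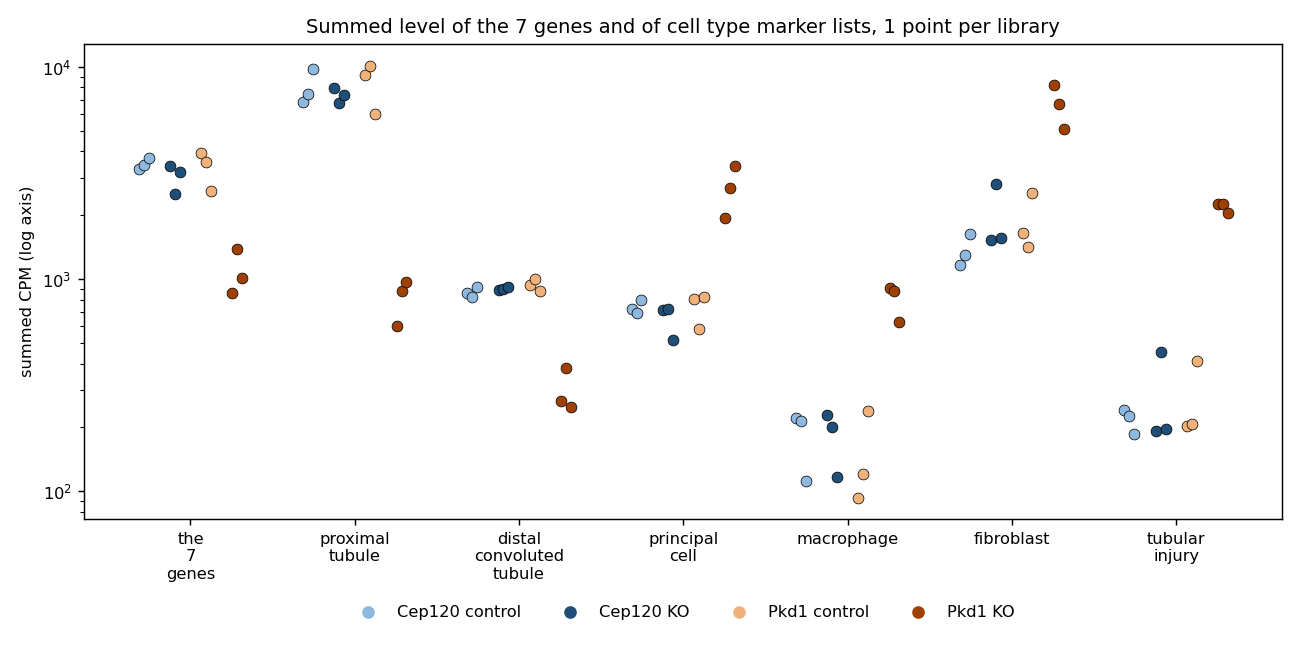
Summed CPM (log axis) of the 7 genes and of the marker lists of 6 other cell types or states, 1 point per library, grouped by line and genotype label. Pkd1 KO libraries lie below the other 9 for the 7 genes, the proximal tubule and the distal convoluted tubule, and above them for the principal cell, macrophage, fibroblast and injury lists.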

How the data were processed

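RNA sequencing libraries were made from ground whole kidney, with Trizol extraction and SMARTer Ultra Low cDNA, per the labels' protocols. Per the submitters' processing notes the tools were Salmon 0.8.2, featureCounts 1.4.6-p5, Subread, STAR 2.5.1a and bcl2fastq with mm9, and which made which table is not said. The deposited gene and transcript tables hold estimated counts, and those of 21.6% of genes are not whole. The deposited TPM are the authors' length-corrected levels, set to a fixed library sum. The deposited moderated log2 CPM served only as an alternative input.

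Of 55774 gene lines 287 repeats were dropped, and of 110672 transcript lines 709. Estimated counts were rounded. Gene and transcript IDs were matched by ID to GENCODE M21 on GRCm38 for names, exons and sequence, and no coordinate of the authors' files was used. The sources used here do not say whether reads were counted by strand, so Slc12a1 and Umod cannot be told apart from antisense genes that overlap them, nor Casr from a small RNA gene within it. Genes were kept by filterByExpr, scaled by TMM and fitted in 1 edgeR 4.0.16 quasi-likelihood model of 4 groups (R 4.3.3, two-sided tests, common biological coefficient of variation 0.238), with Benjamini-Hochberg adjustment over all genes or transcripts tested and a threshold of 0.05. Each edgeR SE is the size of the log2 fold change divided by the square root of its F statistic. limma 3.58.1 and DESeq2 1.42.0 served as alternatives. Correlations used log2 CPM with a prior count of 2. Depth limits the precision of weak genes, and the library totals cover counting error only.

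Groups came from the sample titles. Members, lists and tests were chosen with earlier results of these data known. Named genes were the 7 members, the 2 genes of each list with the smallest p in the Pkd1 comparison, the 6 genes most like the mean of the members (clone-named, mitochondrial and sex-linked genes left out) and the targeted genes. Alternatives were other scalings, filters and tools, left-out libraries, a replicate block, and terms for detection class, Xist and Y-linked RNA. Some genes and results, among them 1 of the 6 promoter motifs searched, are not reported here.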

Additional observations from a re-analysis of the deposited data

Results flagged for a closer look

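All 7 genes changed differently in the 2 lines by the test of the difference itself, the Pkd1 log2 fold change minus the Cep120 one (edgeR, adjusted over all genes tested). Differences were -2.37 for Ppp1r1a, -2.22 for Bsnd, -1.77 for Slc12a1, -1.70 for Sostdc1, -1.51 for Ptger3, -1.19 for Umod and -1.12 for Casr. All 7 stayed called in this difference with the presence of Xist RNA or the share of Y-linked RNA as a term. The Xist term was fitted only from Cep120 KO 3 against Cep120 KO 1 and 2, so it could not test Xist in the Pkd1 line. Groups of 3 libraries were too small to look for single libraries that stand apart within a gene.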

How the results depend on the processing

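Results on the 7 genes were recomputed under 25 other settings, which gave 693 values. Of these 675 kept their direction and their side of the threshold, 1 lost its call (Umod, given above) and 17 turned sign, all of the last in the Cep120 comparison and without a call. The turned log2 fold changes were, with the deposited log2 CPM in limma, 0.00839 for Slc12a1 and 0.0771 for Casr, with Xist as a term 0.0602 for Slc12a1, with the Y-linked share 0.0392 for Slc12a1, 0.0614 for Bsnd, 0.169 for Ppp1r1a and 0.0726 for Umod, with the detection class 0.0108 for Casr and 0.0571 for Ppp1r1a, and without both replicate 3 controls 0.0168 for Casr and 0.0378 for Ppp1r1a. Leaving out 1 library at a time gave -0.22 to 0.00995 for Slc12a1, -0.21 to 0.0562 for Casr and -0.35 to 0.0376 for Ppp1r1a. Over all genes, the Cep120 comparison gave 344 calls with no filter on low counts, 21 with DESeq2, 1 without both replicate 3 controls and 0 to 2 with 1 library left out. The Pkd1 comparison, with 8839 calls, gave 2002 with Xist and 4213 with the Y-linked share as a term. The controls of the 2 lines differed in 248 genes with no filter, 1 with the detection class, 371 without both replicate 3 controls and 0 to 4 with 1 library left out. The cause of these changes was not tested. Slc12a1 was 26.8% of Umod in TPM and 44.0% in CPM, which is not corrected for length. A replicate block gave 7804 calls in the Pkd1 comparison and 0 in the Cep120 one, with all 7 and 0 of the genes, but same-numbered libraries did not deviate together: only 4 of 12 correlated best with their own number. Depth leaves scarce transcripts such as Casr-203 (SE 1.29) imprecise, and 3 libraries a group limit every interval.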
